A study of Mus musculus with 68 samples.

Results

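Endothelial cells of the mouse brain were compared between the chronic and the subacute stage after stroke, and each gene that changed was then set against the stroke controls to see how near its chronic level was to theirs. The comparison held 6 of the 68 libraries of the series, 3 labelled chronic and 3 labelled subacute, with 3 stroke control and 3 stroke acute libraries in the same fit. Per the labels, all 12 came from brain endothelial cells purified by fluorescence-activated sorting into Trizol. The model was MCAO (middle cerebral artery occlusion), in which a large artery of the brain is blocked, and the control libraries carry the same model name marked as control. The labels give stages and no days, and name no strain, age or sex. They do not say whether libraries of a group came from separate animals, so the p-values rest on the spread among these samples, which may be technical. Epilepsy libraries, also from brain endothelial cells, and EAE libraries, from spinal cord endothelial cells, served as comparison. EAE (experimental autoimmune encephalomyelitis) is an immune-driven disease of the central nervous system.

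Brain endothelial cells form the blood-brain barrier through tight junctions and selective transporters. After an arterial block, vessels at the edge of the lesion are known to proliferate, sprout and admit leukocytes, and a scar rich in collagen and other matrix is laid down around them, largely by fibroblasts and other perivascular cells. A later stage shows which of those programmes have ended and which have not. Levels are given as CPM (reads of a gene scaled by the authors to the same total in each library) for libraries 1, 2 and 3 in that order. Differences are on the log2(CPM + 1) scale, which understates the change of low genes, with their standard error (SE). A gene was called at an adjusted p under 0.05 by limma.

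The stroke libraries held 25.5 to 38.8 M reads and 18850 to 21079 genes with a read. The 2 mitochondrial rRNA genes took 23.6 to 40.4% of reads, with 33.4, 34.5 and 39.4% in the subacute, 26.0, 40.4 and 36.9% in the chronic and 24.5, 31.0 and 23.6% in the control libraries. Endothelial markers were abundant at every stage. Their sum over 16 genes was 12422, 11697 and 10021 CPM in the subacute and 14930, 11157 and 12104 CPM in the chronic libraries. Chronic 1 stood apart from the other chronic libraries by its low mitochondrial rRNA. Over all genes, mitochondrial rRNA included, its reads were also more like those of the controls than those of its own group. The chi-square per gene (lower is more alike) was 16.3, 41.4 and 24.6 to controls 1, 2 and 3. To chronic 2 and 3 it was 138.7 and 103.2, and the cause was not tested. Subacute 1 was the lowest of its group in 272 of the 333 genes that were lower at the chronic stage, and chronic 2 was the lowest of its group in 194 of them.

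Most of what separated the stages was a loss. Of 13474 genes tested, 333 (2.47%) were lower and 26 (0.193%) were higher at the chronic than at the subacute stage, 2.66% in all. The median over all genes was -0.01, and 229 of the 359 called genes differed by over 2-fold. In all 359 genes the 3 chronic libraries lay apart from the 3 subacute libraries, as the call nearly requires, and they did so in 2427 of all 13474 genes (18%). Of 316 tested genes that passed the filter on low values only through their subacute libraries, 97 were lower. That way of passing favours a fall without forcing a call. Of the 13158 genes that passed otherwise, 236 were lower. The counts rested on single libraries in part. Without subacute 2 there were 5 higher and 112 lower genes, and without subacute 3 there were 2 and 119. Leaving out chronic 2 gave 23 and 182, chronic 3 gave 3 and 213, and chronic 1 gave 5 and 351. Quantile normalization gave 60 higher and 281 lower genes, so that the share of higher genes among the calls went from 7.24 to 17.6%, and edgeR on recovered reads gave 54 and 278, a share of 16.3%.

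How near the called genes came to control depended on how low genes were scaled. The median distance from control over the 359 genes was 1.25 at the subacute and -0.002 at the chronic stage. In 270 of them the 95% interval of the chronic minus control difference lay within 2-fold of control, and in 104 within 1.5-fold. This is 75.2% of the called genes, and it was 44.3% (133 of 300) at a pseudocount of 0.1 and 43.7% (145 of 332) by edgeR on recovered reads. The pseudocount of 1 draws genes with low levels towards each other. Among called genes in the more abundant part of the table, 76 of 87 were within 2-fold in the main scaling, 66 of 78 at the lower pseudocount and 88 of 100 by edgeR. The remaining 89 of the 359 had wider or more distant intervals and could not be placed. No gene of the 359 was itself called between chronic and control. The chronic mean was inside the range of the control libraries in 156 genes, above it in 102 and below it in 101. The same shares over all tested genes are not given here. The counts within 2-fold or inside the range therefore do not set the called genes apart from the rest. Of the 359, 295 had also been called between subacute and control, in each case in the direction opposite to the later change. In those genes the chronic mean had covered a median of 96.4% of the way from the subacute to the control mean on the log2 scale, with quartiles of 85.4 and 109.6%. That share covers only genes picked for a called change between the stages, which favours a large return. Of 493 genes called higher and 565 called lower at the subacute stage than in control, it holds 279 and 16. These contrasts share the subacute or the control libraries, so the values are a description and not separate evidence. The number of genes within 2-fold fell to 74 of 117 called (63.2%) without subacute 2 and 77 of 121 (63.6%) without subacute 3. It was 130 of 205 (63.4%) without chronic 2 and 131 of 216 (60.6%) without chronic 3, so the share fell along with the calls. Leaving out chronic 1 gave 198 of 356 (55.6%), and 54 of 102 (52.9%) in the more abundant part of the table. Without chronic 1, 47 of the called genes were also called between chronic and control, a number that was 11 with mitochondrial rRNA left out too and 6 with quantile normalization.

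**Figure D1:**
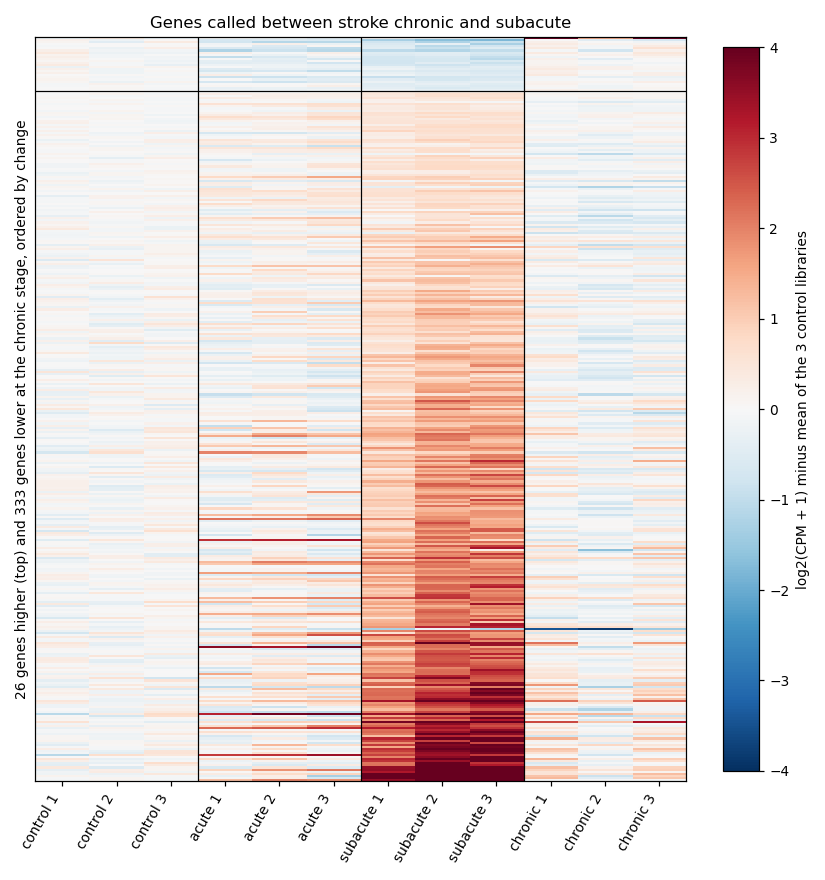
Each row is 1 of the 359 called genes and each column 1 of the 12 stroke libraries. Colour shows log2(CPM + 1) minus the mean of the 3 control libraries, from blue (lower) to red (higher), and ends at 4 in either direction. The 333 genes in the lower block are red in the subacute libraries and mostly pale in the chronic libraries, with subacute 1 paler than subacute 2 and 3.

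Across all 13474 genes, limma called 0 between the chronic and the control libraries (0%), against 493 higher (3.66%) and 565 lower (4.19%), or 7.85% in all, between subacute and control. At an unadjusted p under 0.05 there were 177 higher and 2040 lower chronic genes. The median over all genes was -0.15 for chronic minus control and -0.14 for subacute minus control. With the 2 mitochondrial rRNA genes left out of the totals these medians were -0.006 and 0.03, and the subacute calls became 917 higher and 234 lower. Chronic 1 decided the count against control, since without it 25 genes were higher and 1336 lower. When the mitochondrial rRNA was also left out, the counts without chronic 1 were 34 and 56, and with quantile normalization they were 8 and 18. By edgeR on recovered reads, C3, Cxcl2 and Mmp3 were higher and Tef lower at the chronic stage, and with mitochondrial rRNA left out C3 and Cxcl2 were higher. The subacute calls against control also moved with single libraries. They were 306 higher and 121 lower without control 1, 304 and 90 without control 3, 348 and 266 without subacute 1, 208 and 169 without subacute 2, 184 and 48 without subacute 3, and 601 and 1269 without chronic 1.

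**Figure D2:**
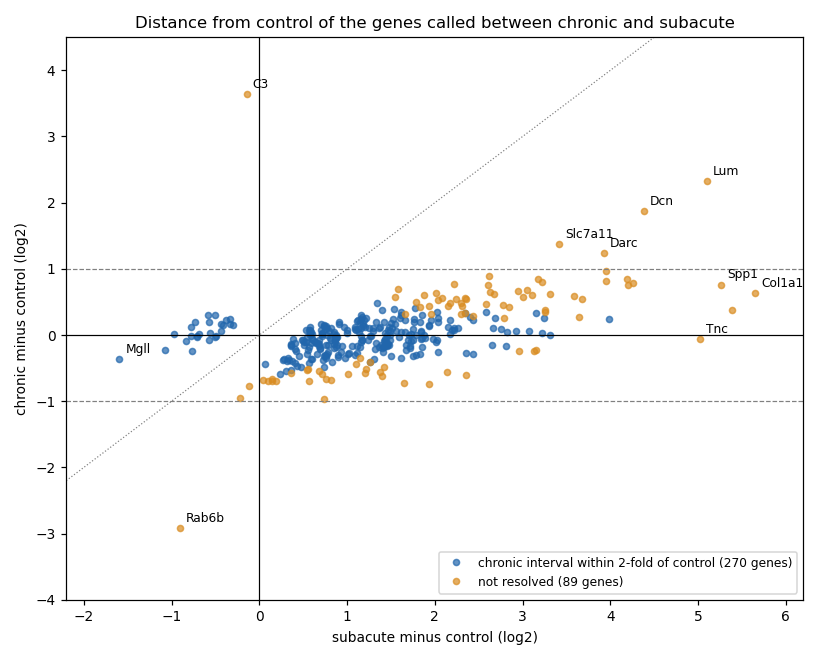
Each point is 1 of the 359 called genes. The x axis is the log2 difference of subacute from control and the y axis that of chronic from control. Dashed lines mark 2-fold, and on the dotted diagonal both stages would be equally far from control. The 270 blue genes have a chronic interval within 2-fold of control, and Lum, Dcn, Slc7a11, Darc, C3 and Rab6b lie outside the dashed lines.

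Extracellular matrix genes were among the largest falls. Of 17 collagens tested, 12 were lower at the chronic stage and none higher, with a median of -1.71 against -0.01 over all genes, and 9 of the 14 that passed the filter otherwise were lower. Of 32 other matrix and remodelling genes, 16 were lower and none higher, with a median of -0.85, and 15 of the 30 that passed otherwise were lower. The latter count was 9 without subacute 2 and 10 without subacute 3.

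Col1a1, a chain of the fibrillar collagen type I, stood at 76.2, 84.3 and 209 CPM in the subacute, 4.39, 0.604 and 3.67 CPM in the chronic and 1.14, 1.41 and 1.12 CPM in the control libraries. All subacute libraries were far above all others, and chronic 1 and 3 remained above the controls while chronic 2 was below them. The chronic minus subacute difference was -5.02 (SE 0.42, adjusted p = 2.7e-05). Its partner chain Col1a2 had 118, 177 and 319.6 CPM in the subacute, 22.4, 10.7 and 18.2 CPM in the chronic and 12.7, 6.03 and 10.2 CPM in the control libraries. Here the chronic and control ranges overlapped, and the difference between chronic and subacute was -3.45 (SE 0.38, adjusted p = 0.00014). Col3a1, the collagen of distensible tissue, was at 71.4, 140.2 and 190.3 CPM in the subacute and 5.65, 0.639 and 4.38 CPM in the chronic libraries, a difference of -5.01 (SE 0.48, adjusted p = 7.7e-05). Col6a3, a chain of the beaded-filament collagen VI, had 9.99, 25.4 and 20.9 CPM in the subacute and 0.676, 0.213 and 0.309 CPM in the chronic libraries. It passed the filter only through the subacute libraries, and its chronic minus control difference was 0.24 with an interval of -0.38 to 0.86.

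Spp1 (osteopontin), a secreted phosphoprotein of injured tissue, had the largest fall among the more abundant genes. Its subacute libraries held 102, 366 and 232 CPM, the chronic libraries 6.82, 6.64 and 11.6 CPM and the control libraries 3.72, 3.56 and 6.18 CPM. The difference between chronic and subacute was -4.50 (SE 0.36, adjusted p = 1.6e-05). Every chronic library was still above every control library, by a difference of 0.76 that was not called (adjusted p = 0.30). Tnc (tenascin-C), a matrix glycoprotein of wounds, went from 11.1, 112 and 29.2 CPM to 0.0307, 0.0355 and 0 CPM, which was the level of the controls at 0, 0.157 and 0.0349 CPM. Its difference was -5.08 (SE 0.53, adjusted p = 0.00011). Timp1, an inhibitor of matrix metalloproteinases, was at 14.5, 37.3 and 26.3 CPM in the subacute and 1.47, 0.888 and 1.54 CPM in the chronic libraries, again all above the controls at 0.0344, 0.588 and 0.419 CPM. The difference was -3.47 (SE 0.33, adjusted p = 7.7e-05).

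Other genes among the large falls differed in how far they returned. Fstl1, a secreted glycoprotein, went from 92.8, 153 and 247 CPM to 39.1, 25.7 and 36.3 CPM and so back among its controls at 33.8, 27.9 and 31.1 CPM, with a change of -2.16 (SE 0.31, adjusted p = 0.00093). Lamb1, a laminin chain of the basement membrane, went from 34.6, 64.2 and 37.6 CPM to 12.5, 7.49 and 10.5 CPM, with controls at 13.5, 6.74 and 12.2 CPM. For Fstl1 and Lamb1 the chronic interval lay within 2-fold of control. Anxa1, a phospholipid-binding protein that restrains leukocytes, fell from 29.9, 43.2 and 66.3 CPM to 10.8, 11.2 and 13.7 CPM, each above the controls at 6.17, 8.54 and 8.93 CPM, and had covered 76.8% of the way back.

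Dcn and Lum, proteoglycans that bind collagen fibrils, had a chronic mean over 2-fold from control. Dcn (decorin) was at 98.5, 298 and 302 CPM in the subacute, 45.4, 18.1 and 54.1 CPM in the chronic and 13, 7.33 and 7.54 CPM in the control libraries. No chronic library overlapped either of the other groups. The change from subacute was -2.51 (SE 0.42, adjusted p = 0.0031), and the chronic minus control difference was 1.87 with an interval of 0.98 to 2.77 (adjusted p = 0.13). Lum (lumican), chosen after its values were seen, had 27.3, 106 and 107 CPM in the subacute, 11.6, 3.23 and 18.2 CPM in the chronic and 2, 0.823 and 0.489 CPM in the control libraries. Its chronic minus control difference was 2.32 with an interval of 1.202 to 3.44 (adjusted p = 0.13). Dcn had covered 57.3% and Lum 54.4% of the way back, and the adjusted p-values leave both differences from control uncalled.

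Some low matrix genes were present almost only at the subacute stage, and those named here were chosen after their values were seen. Has2, a hyaluronan synthase, had 2.91, 11.1 and 19.8 CPM in the subacute libraries and was listed at 0 in all 3 chronic and all 3 control libraries, so no fold is given. Lrrc15, a membrane protein of activated fibroblasts, had 3.73, 7.3 and 11.1 CPM against 0, 0 and 0.216 CPM at the chronic stage. Mmp9, a gelatinase, had 2.01, 13.2 and 13.8 CPM against 0.0307, 0 and 0.185 CPM. Pdpn (podoplanin), a membrane glycoprotein, had 2.91, 8.44 and 13.7 CPM against 0.338, 0.675 and 0.278 CPM. These 4 genes passed the filter only through their subacute libraries. Vcan (versican), a large proteoglycan, did not need them, with 10.5, 20.5 and 28.4 CPM in the subacute, 2.49, 1.53 and 2.44 CPM in the chronic and 2.27, 3.06 and 3.07 CPM in the control libraries.

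Fibroblast markers were also lower at the chronic stage, though the list shares much of its sum with the matrix genes. The sum of 11 fibroblast markers, among them Col1a1, Col1a2, Col3a1, Dcn and Lum, was 443, 878 and 1240 CPM in the subacute, 122, 49.95 and 138 CPM in the chronic and 49.2, 26.9 and 35.5 CPM in the control libraries. Every chronic library was above every control library, and none of the 11 was at 0 throughout a stage. Of 10 fibroblast markers tested, 7 were lower at the chronic stage, with a median of -2.19, and their median was 0.85 above control. All 7 were lowest in chronic 2 among the chronic libraries and highest in subacute 3 among the subacute libraries, and 11 of the 12 lower collagens were lowest in chronic 2 as well. The 5 markers in neither matrix list (Pdgfra, Dpt, Fbln1, Lama1 and Slc6a13) summed to 43.6, 62.1 and 81.8 CPM in the subacute, 29.9, 14.9 and 34.2 CPM in the chronic and 14.9, 8.15 and 12.3 CPM in the control libraries, and 1 of the 4 tested was called lower. In sorted bulk samples, fewer cells of a type and less RNA per cell cannot be told apart, and the part of fibroblasts in the matrix result was not tested. The sum of 16 mural cell markers was 6829, 6779 and 5194 CPM in the subacute and 6619, 5401 and 6189 CPM in the chronic libraries. Of 15 tested mural markers 0 were called, where 2.66% of all tested genes were.

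**Figure D3:**
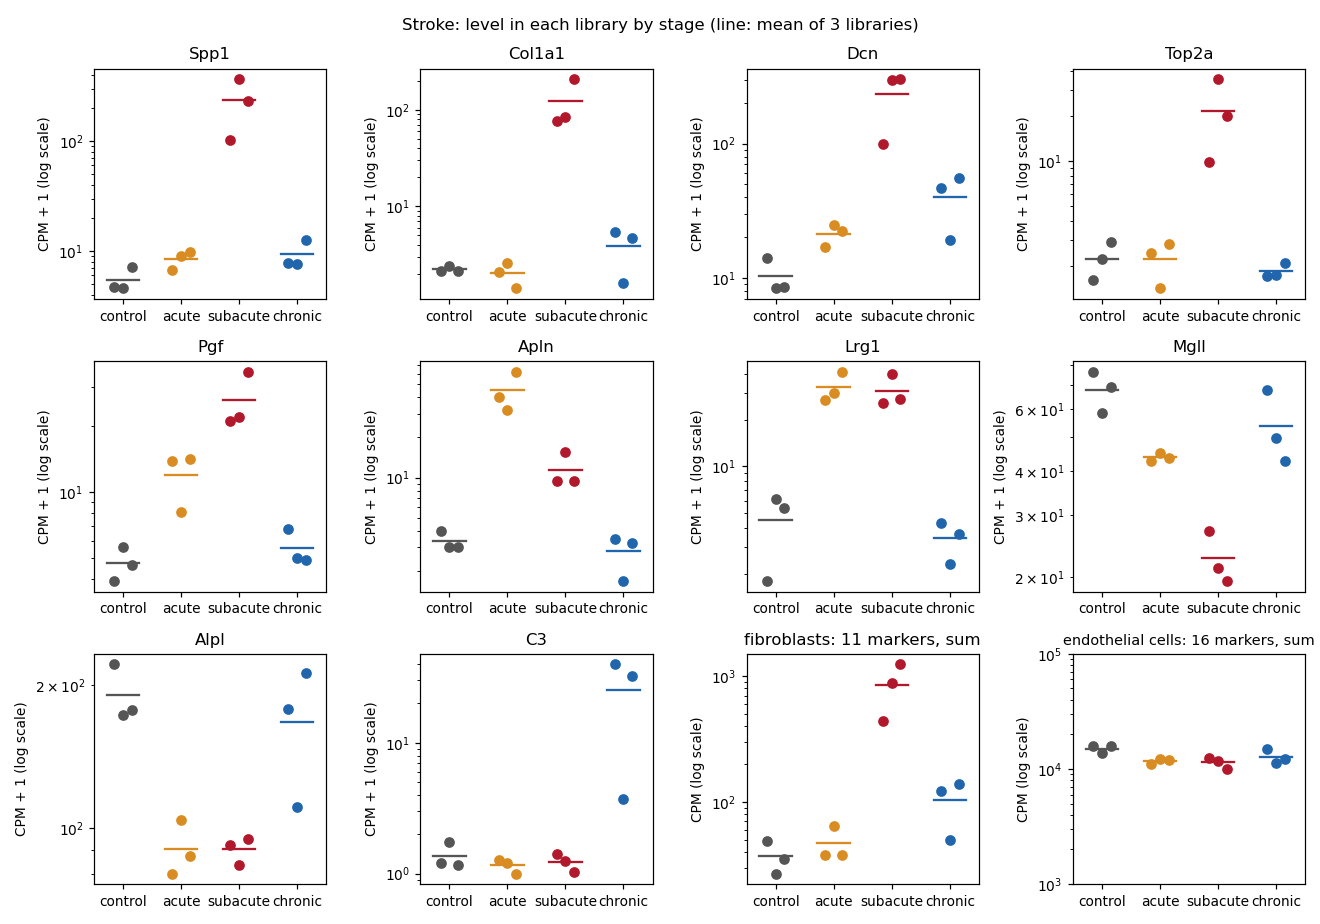
Each panel shows the level of a gene (CPM + 1, log axis) or the summed level of a marker list (CPM, log axis) in the 12 stroke libraries by stage, with a line at the mean of 3 libraries. The matrix genes, Top2a and the fibroblast sum peak at the subacute stage, Apln peaks at the acute stage, Mgll and Alpl dip and return, and C3 is high in chronic 1 and 3 and lower in chronic 2.

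Proliferation genes fell, and on the log2(CPM + 1) scale 13 of the 19 called members were within 2-fold of control and 6 could not be placed. Of 33 tested genes of the cell cycle and mitosis, 19 were lower at the chronic stage and none higher, with a median of -1.23, and 10 of the 24 that passed the filter otherwise were lower. The count was 7 without subacute 2 and 6 without subacute 3. Their sum over 40 genes was 236, 433 and 303 CPM in the subacute and 185, 189 and 175 CPM in the chronic libraries. In CPM each chronic library was slightly below each control library, at 191, 197 and 205 CPM. Mitochondrial rRNA took 26.0, 40.4 and 36.9% of chronic and 24.5, 31.0 and 23.6% of control reads. The sums were not rescaled without it, so they do not show a level below control apart from that scaling. In all 19 lower genes subacute 1 was the lowest and subacute 2 the highest of the subacute libraries. The chronic mean had covered a median of 110% of the way back in those of the 19 that were called at the subacute stage, and 0 of the 19 were called between acute and control.

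Top2a (topoisomerase II alpha), which untangles DNA before division, was at 8.92, 34.3 and 18.9 CPM in the subacute, 0.706, 0.746 and 1.08 CPM in the chronic and 0.62, 1.21 and 1.88 CPM in the control libraries. The change was -3.38 (SE 0.38, adjusted p = 0.00015). Hmmr, a hyaluronan receptor of the mitotic spindle, went from 3.58, 12.4 and 6.76 CPM to 0.276, 0.0355 and 0.123 CPM, a change of -2.78 (SE 0.30, adjusted p = 0.00012). Anln (anillin), which scaffolds the cleavage furrow, went from 3.18, 13.7 and 11.4 CPM to 0.0307, 0.0355 and 0.494 CPM, a change of -2.96 (SE 0.36, adjusted p = 0.00028). Its chronic libraries were all below its controls at 0.896, 0.627 and 0.838 CPM. Hmmr and Anln passed the filter only through their subacute libraries.

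The promoters of these 3 genes are shown because genes of late cell cycle are known to be timed through CHR and CCAAT elements near their start sites. The windows run from 250 bases before to 50 after the start, 5′ to 3′ on the strand of the gene, from RefSeq on GRCm38.p6, a later build than the mm9 of the deposited data. Hmmr lies at chr11:40733388-40733687, Top2a at chr11:99024140-99024439 and Anln at chr9:22389157-22389456, all on the minus strand. Capitals mark CHR (TTTGAA or its reverse complement TTCAAA) and CCAAT (or its reverse complement ATTGG).
Hmmr: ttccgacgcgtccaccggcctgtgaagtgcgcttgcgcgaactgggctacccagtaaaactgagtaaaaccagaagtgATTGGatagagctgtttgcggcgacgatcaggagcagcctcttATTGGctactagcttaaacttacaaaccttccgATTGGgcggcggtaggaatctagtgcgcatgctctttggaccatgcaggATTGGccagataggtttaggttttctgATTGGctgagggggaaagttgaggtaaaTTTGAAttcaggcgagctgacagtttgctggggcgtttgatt
Top2a: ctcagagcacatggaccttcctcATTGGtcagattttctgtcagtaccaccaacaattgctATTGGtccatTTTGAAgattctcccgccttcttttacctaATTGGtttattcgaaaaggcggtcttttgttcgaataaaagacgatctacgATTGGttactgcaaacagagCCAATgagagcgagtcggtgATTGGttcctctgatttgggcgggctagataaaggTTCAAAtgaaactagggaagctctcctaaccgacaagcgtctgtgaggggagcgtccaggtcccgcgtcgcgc
Anln: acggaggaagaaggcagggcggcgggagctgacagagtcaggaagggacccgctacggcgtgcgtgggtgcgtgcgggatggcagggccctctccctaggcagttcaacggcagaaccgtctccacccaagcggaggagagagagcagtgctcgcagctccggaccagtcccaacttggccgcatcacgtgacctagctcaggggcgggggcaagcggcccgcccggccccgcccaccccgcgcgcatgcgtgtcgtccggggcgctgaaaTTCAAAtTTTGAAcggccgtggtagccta
The Hmmr window held 1 CHR and 5 CCAAT matches, that of Top2a 2 and 6, and that of Anln 2 CHR and 0 CCAAT matches. Among the 16 of the 19 lower cell cycle genes with a window, 8 (50%) held a CHR, 12 (75%) a CCAAT and 7 (43.8%) both. Over all 27025 windows of the table the shares were 18.1% for CHR, 37.9% for CCAAT and 7.12% for both. The 225 windows of all 333 lower genes held CHR in 18.2%, CCAAT in 39.6% and both in 9.78%. An AP-1 motif (TGANTCA, which is its own reverse complement) was in 7.56% of the 225 and 7.93% of all windows. Of the lower collagens with a window, 1 of 9 held a CHR, 3 a CCAAT and 1 an AP-1 match. Matches of different motifs were counted separately and may share bases, and a match is a description of letters, not a site.

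A few angiogenic genes were lower as well. Of 26 genes of angiogenesis and tip cells, 5 were lower at the chronic stage and none higher, while the median of the list was -0.03. Pgf, a growth factor that binds the VEGF receptor Flt1, was at 20.1, 20.9 and 34.3 CPM in the subacute, 5.77, 3.98 and 3.89 CPM in the chronic and 2.93, 4.62 and 3.66 CPM in the control libraries, a change of -2.21 (SE 0.25, adjusted p = 0.00016). Vegfa, the main angiogenic growth factor, went from 6.7, 18.7 and 12.6 CPM to 3.69, 1.88 and 2.44 CPM, a change of -1.82 (SE 0.29, adjusted p = 0.0022), with controls at 3.24, 2.08 and 3.84 CPM. Cxcr4, a chemokine receptor of tip cells, went from 7.98, 12.4 and 12.1 CPM to 1.93, 2.34 and 2.78 CPM, a change of -1.80 (SE 0.25, adjusted p = 0.00090). Each of these 3 genes was back within 2-fold of control.

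Apelin and its receptor were the other two. Apln, a peptide ligand of tip cells, had its highest level before the subacute stage, with 39.6, 31.3 and 61.4 CPM in the acute, 8.39, 14.6 and 8.47 CPM in the subacute, 2.49, 0.675 and 2.22 CPM in the chronic and 3, 2 and 2.02 CPM in the control libraries. Every acute library was above every subacute library, and the change from subacute to chronic was -2.07 (SE 0.30, adjusted p = 0.0011). Aplnr, the apelin receptor, chosen after its values were seen, had 4.34, 5.03 and 2.5 CPM in the acute, 20.0, 40.0 and 17.1 CPM in the subacute and 4.18, 3.12 and 5.37 CPM in the chronic libraries. Its change was -2.28 (SE 0.35, adjusted p = 0.0016).

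Genes of leukocyte recruitment and inflammation changed in part. Darc (Ackr1), an atypical chemokine receptor of venules, was raised from the acute stage on, with 21.7, 37.9 and 39.9 CPM in the acute and 27.9, 61.4 and 37.9 CPM in the subacute libraries. The chronic libraries held 6.94, 5.82 and 3.86 CPM, all below those and all above the controls at 0.276, 2.39 and 3.59 CPM. Its change from subacute was -2.69 (SE 0.40, adjusted p = 0.0014), and it had covered 68.4% of the way back. Lrg1, a secreted glycoprotein of inflamed venules, followed the same course to 3.26, 1.31 and 2.66 CPM at the chronic stage, from 24.8, 38.7 and 26.6 CPM at the subacute and 26.1, 28.9 and 40.5 CPM at the acute stage, a change of -3.21 (SE 0.38, adjusted p = 0.00021). Alcam, an adhesion molecule of leukocyte passage, went from 16.1, 29.8 and 27.3 CPM to 15, 11.8 and 10.3 CPM (-0.89, SE 0.21, adjusted p = 0.033), and this call was lost in 7 of 20 alternatives. Selp (P-selectin), on which leukocytes roll, was not called, at -1.66 (SE 0.42, adjusted p = 0.051), with 3.44, 12.7 and 4.57 CPM in the subacute and 1.57, 0.994 and 1.11 CPM in the chronic libraries.

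Of 11 leukocyte adhesion genes 2 were lower (median -0.20), and of 24 NF-kB and cytokine targets only Lrg1 was lower (median -0.30). Ptgs2 (cyclooxygenase-2) was uncalled at -0.99 (adjusted p = 0.071). None of 30 interferon response genes, 13 MHC class I genes or 4 MHC class II genes was called. Over all tested genes 2.66% were, so 0 in such short lists does not set them apart. Ifitm1, an interferon-induced membrane protein, came nearest among the interferon genes, at 19.4, 21.3 and 19.1 CPM in the subacute, 9.7, 13.4 and 12.4 CPM in the chronic and 9.51, 6.31 and 8.13 CPM in the control libraries (-0.71, adjusted p = 0.076). Summed microglia and macrophage markers were 29.7, 42.5 and 46.4 CPM in the subacute and 30.6, 27.9 and 33.1 CPM in the chronic libraries. Of 7 tested, Tmem119 was called, with 1.89, 4.33 and 8.36 CPM in the subacute and 0.645, 0.391 and 0.432 CPM in the chronic libraries, and it passed the filter only through the subacute libraries.

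Stress, hypoxia and clotting genes gave 3 lower members in each list, where 2.47% of all tested genes were lower. Among members that passed the filter without needing the subacute libraries, 3 of 12 NRF2, 1 of 17 hypoxia and 2 of 11 coagulation genes were lower. That hypoxia gene, Vegfa, is also counted among the angiogenic genes. Among 12 NRF2 targets, Hmox1 (heme oxygenase-1) went from 26.4, 34.6 and 31.5 CPM to 10.8, 10.1 and 8.92 CPM, a change of -1.53 (SE 0.27, adjusted p = 0.0046), and all chronic libraries were below the controls at 11.7, 14.2 and 15.8 CPM. Slc7a11, the cystine transporter, was lower by far in chronic 2 than in the others, with 20.0, 81.6 and 43.6 CPM in the subacute, 16.8, 3.8 and 11.9 CPM in the chronic and 4.55, 2.15 and 2.62 CPM in the control libraries. Its change was -2.04 (SE 0.48, adjusted p = 0.033), which was lost in 8 of 20 alternatives, and it had covered 59.7% of the way back. Me1, a malic enzyme that makes NADPH, changed by -0.89 (SE 0.21, adjusted p = 0.036), a call lost in 12 of 20 alternatives.

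Among 19 hypoxia and glycolysis genes the lower members were Vegfa, the oxygen sensor Egln3 at -1.04 (adjusted p = 0.0092) and the hexokinase Hk2 at -1.27 (adjusted p = 0.025), a call lost in 7 of 17 alternatives. Egln3 had 1.4, 1.7 and 1.08 CPM at the subacute and 0.215, 0.213 and 0.0617 CPM at the chronic stage, and Hk2 had 1.46, 5.01 and 3.21 CPM and then 0.86, 0.249 and 0.895 CPM. Both passed the filter only through the subacute libraries. Among 12 coagulation genes, F3 (tissue factor), the trigger of clotting, went from 8.19, 9.86 and 20.7 CPM to 1.47, 0.426 and 1.27 CPM, a change of -2.69 (SE 0.29, adjusted p = 0.00012), and remained above its controls at 0.413, 0.157 and 0.349 CPM in each chronic library. Anxa2, a plasminogen co-receptor, was raised at the acute stage too, with 149.6, 153 and 160.0 CPM there, 149.5, 162 and 140.3 CPM at the subacute, 102, 112 and 103 CPM at the chronic stage and 96.3, 111 and 95.7 CPM in the controls. Its change was -0.50 (SE 0.11, adjusted p = 0.019), lost in 7 of 20 alternatives. F3 passed the filter only through the subacute libraries.

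Between acute and control, 58 of all tested genes (0.43%) were called higher and 134 (0.995%) lower, 1.42% in all. Among the 333 genes lower at the chronic stage, 24 were called higher at the acute stage and 0 lower, and 15 had an acute mean above the subacute mean. Their median difference from control was 0.06 at the acute, 1.36 at the subacute and -0.005 at the chronic stage. By list, the median distance from control of the lower members at the chronic stage was 0.32 for 12 collagens and 0.63 for 7 fibroblast markers. It was -0.23 for 19 cell cycle genes and 0.04 for 5 angiogenic genes. The way back was taken only over members also called between subacute and control. Its median was 90.7% for 10 collagens, 87.1% for 15 other matrix genes, 81.2% for 7 fibroblast markers and 97.8% for 5 angiogenic genes. Fewer could be placed near control. The chronic interval was within 2-fold of control in 3 of 12 lower collagens, 8 of 16 other matrix genes and 0 of 7 fibroblast markers. It was so in 4 of 5 angiogenic genes, and the rest of each list was not resolved.

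**Figure D4:**
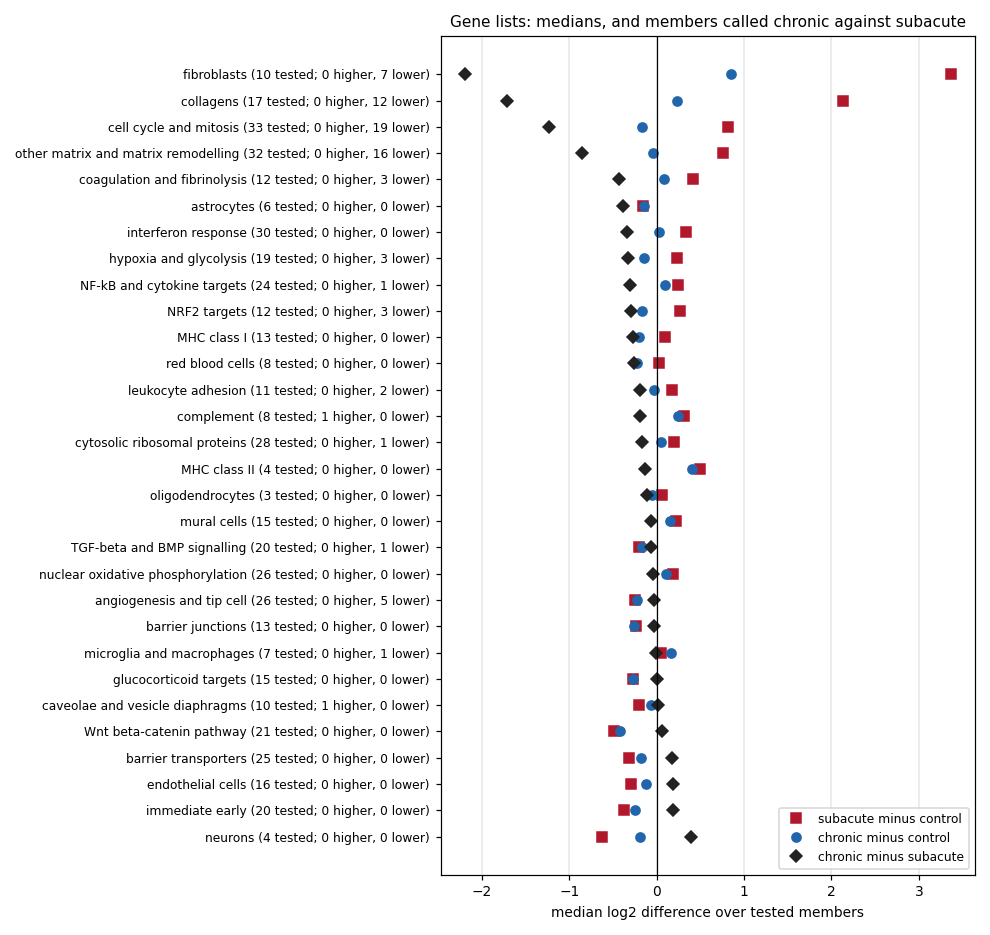
For each list the marks give the median over its tested members of the log2 difference subacute minus control (red square), chronic minus control (blue circle) and chronic minus subacute (black diamond). Beside each name stand the members tested and those called higher and lower. Fibroblasts, collagens, cell cycle and other matrix genes lie apart from the other lists, and their chronic distance from control is between -0.17 and 0.85.

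The 26 higher genes had smaller changes. Their median change was 0.69, 2 of them changed by over 2-fold, and 25 of the 26 were back within 2-fold of control. In 22 the acute mean was below the control mean, as in 63.4% of all tested genes, and 5 were called lower than control at the acute stage, as were 0.995% of all. Mgll, the lipase that breaks down the endocannabinoid 2-arachidonoylglycerol, had the largest rise among the more abundant genes. It stood at 26, 20.3 and 18.5 CPM in the subacute, 67.1, 48.8 and 41.7 CPM in the chronic and 75.6, 57.4 and 68.3 CPM in the control libraries, a change of 1.23 (SE 0.17, adjusted p = 0.00081). Alone among the 10 abundant risers named here it kept its call in all 20 alternatives. Alpl, tissue-nonspecific alkaline phosphatase of brain capillaries, rose from 91.4, 82.7 and 93.8 CPM to 177, 109.8 and 211 CPM, with controls at 220.4, 172 and 176 CPM and acute libraries at 79.2, 103 and 86.2 CPM. Its change of 0.84 (SE 0.19, adjusted p = 0.033) was lost in 8 of 20 alternatives, and chronic 2 lay nearest to the subacute libraries.

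Sdpr (cavin-2), which shapes caveolae, rose from 462, 438 and 423 CPM to 759.6, 625 and 615 CPM, with controls at 692, 583 and 689 CPM, and was the only member called of 10 caveolae genes (0.59, SE 0.13, adjusted p = 0.026). Vwa3a went from 13.1, 9.57 and 12.4 CPM to 27.4, 23.5 and 21.3 CPM (0.99, adjusted p = 0.014), and Ntn4 (netrin-4), a laminin-related protein of vascular basement membrane, from 24.9, 17.7 and 23.7 CPM to 44.1, 31.4 and 51.2 CPM (0.89, adjusted p = 0.024). Lmcd1, a LIM-domain protein, changed by 0.76 (adjusted p = 0.038) and Cables1, a Cdk5-binding protein, by 0.75 (adjusted p = 0.049). The RNA methyltransferase Nsun6 changed by 0.61 (adjusted p = 0.031), the cyclin Ccnl1 by 0.60 (adjusted p = 0.023) and Arid5a, an RNA- and DNA-binding protein, by 0.57 (adjusted p = 0.031). These calls were lost in 14 of 20 alternatives for Cables1, 9 for Lmcd1, 8 for Nsun6 and Sdpr, 7 for Arid5a, 6 for Ccnl1, 5 for Ntn4 and 3 for Vwa3a. For Vwa3a, Alpl, Lmcd1, Cables1 and Sdpr the subacute level had also been called lower than control, and for Ntn4, Nsun6, Ccnl1 and Arid5a it had not.

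On the log2(CPM + 1) scale, a chronic mean over 2-fold from control was found in 6 of the 359 genes, all without a call against control. These were Dcn, Lum, Slc7a11 and Darc, described above, with C3 and Rab6b. The scale understates low genes, so others, such as Timp1 and F3, can be over 2-fold from control in plain CPM. C3, the central complement protein, was near 0 until the chronic stage, with 0.207, 0.744 and 0.175 CPM in the control, 0.272, 0.207 and 0 CPM in the acute and 0.408, 0.258 and 0.0349 CPM in the subacute libraries. The chronic libraries held 38.9, 2.73 and 31.2 CPM, so chronic 2 was above all earlier libraries and far below chronic 1 and 3. The change from subacute was 3.78 (SE 0.61, adjusted p = 0.0025). The difference from control was 3.64 with an interval of 2.33 to 4.95 (adjusted p = 0.085), and it was called when mitochondrial rRNA was left out (adjusted p = 0.037) and by edgeR (adjusted p = 0.020). C3 passed the filter only through the chronic libraries, and without any 1 of them it was not tested in the main scaling. It was the only member called of 8 complement genes. The fibroblast sum was also lower in chronic 2 than in chronic 1 and 3, and its part in the C3 level was not tested.

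Rab6b, a small GTPase of vesicle traffic, was lower at the chronic than at any other stage. It had 44.6, 35.3 and 43.9 CPM in the control, 19.6, 29 and 21.7 CPM in the acute, 16.2, 35.5 and 17 CPM in the subacute and 2.83, 1.99 and 14.3 CPM in the chronic libraries. The chronic and subacute libraries did not overlap, but chronic 3 lay close to the lowest subacute library. The change from subacute was -2.005 (SE 0.45, adjusted p = 0.028), lost in 9 of 20 alternatives, and the difference from control was -2.91 with an interval of -3.88 to -1.94 (adjusted p = 0.085). Without chronic 3 it was the only gene called between chronic and control. D17H6S56E-5 was also among the 10 largest falls of the more abundant genes, from 22.1, 60.1 and 47 CPM to 8.6, 10.5 and 8.4 CPM (-2.01, adjusted p = 0.0059), with controls at 8.4, 21 and 17 CPM. Of 28 cytosolic ribosomal protein genes only Rplp0 was lower, at 54.6, 62.2 and 58 CPM and then 37.1, 38.5 and 44.2 CPM (-0.54, adjusted p = 0.033), a call lost in 12 of 20 alternatives.

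Barrier genes did not pass the test between the stages. Of 25 barrier transporters and 13 junction genes 0 were called, with medians of 0.18 and -0.03. Over all tested genes 2.66% were called, and at that share lists of this size can hold 0. The count therefore does not set barrier genes apart. Slc2a1 (GLUT1), the glucose transporter, was at 6503, 5126 and 5655 CPM in the subacute, 7287, 5515 and 6835 CPM in the chronic and 7284, 8164 and 6784 CPM in the control libraries. The stages overlapped and the difference was 0.18 (SE 0.18, adjusted p = 0.79). Abcb1a (P-glycoprotein), the drug efflux pump, was called lower at the subacute stage than in control (-0.53, adjusted p = 0.048, with a median of -0.14 over all genes). At the chronic stage it stood 0.24 above the subacute level (SE 0.15, adjusted p = 0.57), with 863, 856 and 725 CPM and then 1176, 861 and 875 CPM. Slco1c1, a thyroid hormone transporter, differed by 0.25 (SE 0.13, adjusted p = 0.44), and Mfsd2a, the lysophospholipid transporter, by 0.22 (SE 0.13, adjusted p = 0.56). Claudin-5 (Cldn5) was at 446, 379 and 382 CPM in the subacute and 369, 401 and 374 CPM in the chronic libraries (-0.07, SE 0.13, adjusted p = 0.91), and occludin (Ocln) differed by 0.17 (SE 0.11, adjusted p = 0.58). Pecam1 and Cdh5, adhesion proteins of endothelial junctions, differed by 0.06 (SE 0.13, adjusted p = 0.93) and -0.17 (SE 0.16, adjusted p = 0.78). At quantile normalization Slc2a1 and Pecam1 took a negative sign, -0.05 and -0.002.

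Endothelial markers that had been lower at the subacute stage were not called on the way back. At that stage the median over all genes was -0.14 against control. The 565 lower calls became 234 with mitochondrial rRNA left out, and whether the genes here kept theirs is not given. Sox17, a transcription factor of arterial endothelium, was at 149, 142 and 158 CPM in the control, 93.9, 95.9 and 77.9 CPM in the subacute and 128, 90.7 and 101 CPM in the chronic libraries. Its subacute level was called against control (-0.74, adjusted p = 0.0061), and its chronic minus control difference was -0.50 with an interval of -0.80 to -0.20 (adjusted p = 0.21). Tek (the angiopoietin receptor Tie2) and Egfl7, a secreted endothelial protein, had been called lower at the subacute stage as well, by -0.46 and -0.53, and differed between chronic and subacute by 0.34 (adjusted p = 0.21) and 0.41 (adjusted p = 0.11). Of 21 Wnt pathway genes, 5 had been lower at the subacute stage and 0 were called between the stages (medians of -0.49 against control and 0.06 between the stages). None of 20 immediate early, 15 glucocorticoid-responsive or 26 oxidative phosphorylation genes was called, where 2.66% of all tested genes were. Of 20 TGF-beta and BMP genes 1 was lower. No called gene was among the tested markers of astrocytes, neurons, oligodendrocytes, neutrophils, red blood cells or choroid plexus, and no lymphocyte marker passed the filter.

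Matrix genes were among those whose change differed between stroke and the other models, mostly EAE. In a fit of 36 libraries and 15252 genes, 86 (0.564%) changed from subacute to chronic unlike EAE and 10 (0.0656%) unlike epilepsy, 2 of them higher (0.0131%) and 8 lower (0.0525%), each by a test of the difference itself. The count unlike EAE was 399 without EAE chronic 1 and 27 without stroke subacute 3, and the count unlike epilepsy ran from 3 to 22 when single libraries were left out and was 0 by edgeR. Within their own models, epilepsy had 197 higher (1.29%) and 533 lower (3.49%) genes, 4.79% in all, and EAE 179 higher (1.17%) and 504 lower (3.3%), 4.48% in all. Of 18 collagens, 11 had a lower change in stroke than in EAE, and of 32 other matrix genes 5 did. In EAE itself no gene of either list was called lower, and the medians were 0.74 and 0.03. In epilepsy, 3 of the 18 collagens were lower and 0 higher, with a median of -0.28. Of the 32 other matrix genes, 9 were lower and 1 higher there, with a median of -0.54. Only 1 of the listed collagens and 0 of the listed other matrix genes were called unlike epilepsy. Col1a1 changed by 1.10 (SE 0.64) in EAE and -0.35 (SE 0.64) in epilepsy against -5.02 in stroke, a difference of -6.12 from EAE (adjusted p = 0.0010) and -4.67 from epilepsy (adjusted p = 0.033). Col3a1 differed from EAE by -5.54 (adjusted p = 0.0050) and not by the test from epilepsy (adjusted p = 0.081).

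The cell cycle genes changed in each model. Among 40 in this fit, 32 were lower in epilepsy and 33 in EAE, and 19 of 33 were lower in stroke, with 0 called as different from stroke in either model. Top2a changed by -4.45 (SE 0.44) in epilepsy and -3.43 (SE 0.44) in EAE. Immediate early genes gave 16 of 20 higher members in epilepsy, 6 of 20 in EAE and 0 of 20 in stroke, and 0 of those differences between models were called. The rise of C3 in stroke had no called counterpart, at 0.01 (SE 0.70) in epilepsy and 0.14 (SE 0.70) in EAE, but the differences of 3.78 and 3.64 from them were not called (adjusted p = 0.20 and 0.092).

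**Figure D5:**
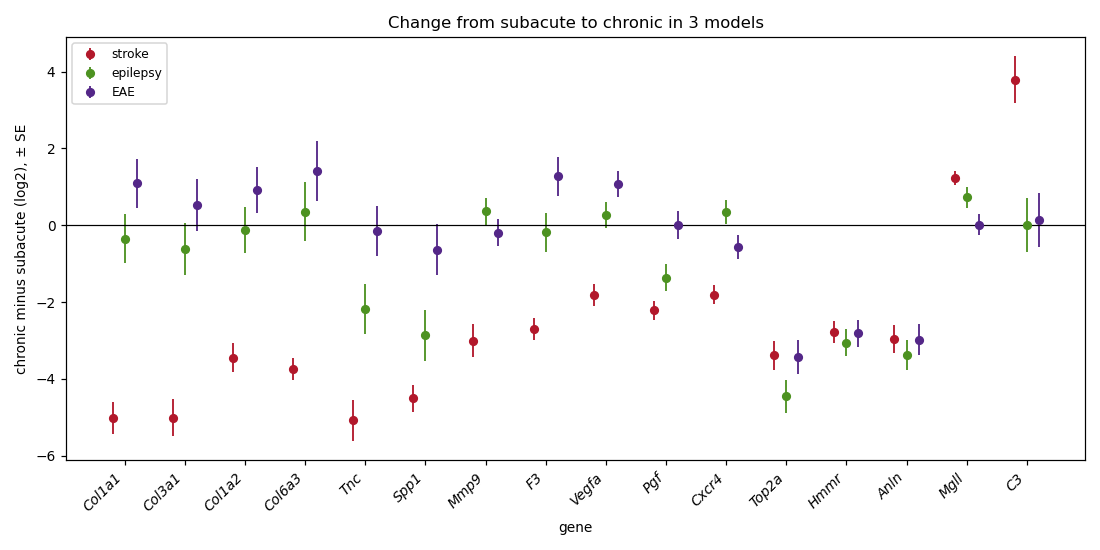
Points show the log2 change from subacute to chronic in stroke (red), epilepsy (green) and EAE (purple) for 16 genes, and bars are ± SE, with stroke values from the fit of the 12 stroke libraries and the others from the fit of 36 libraries. Collagens, Tnc, F3 and Vegfa are well below 0 in stroke and near or above 0 in EAE, while Top2a, Hmmr and Anln are below 0 in all 3 models.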

How the data were processed

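RNA was measured by RNA-seq in 68 mouse libraries, of which the 12 stroke libraries carry the comparison. The kits, per the labels, were NuGEN's Ovation V2 for RNA-seq and its Ultralow. Tools named, without roles, in the submitters' processing notes are Subread, featureCounts and TopHat2 2.0.13, with the mm9 build, and whether counting used strand is not given in the sources used here. Values are CPM, which the authors deposited for each library in a single table, per the file headers, and no count column was used. Of its 37991 lines, 3401 repeat a symbol, and a repeated symbol was read from the identifier with the highest mean. Spreadsheet dates in place of symbols were repaired for 25 lines. The table has no count of reads, so the planned version for normalized values was used.

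Genes over 1 CPM in at least 3 of 12 libraries entered limma 3.58.1 with a trend (R 4.3.3) on log2(CPM + 1), with all 4 stroke groups in 1 fit and Benjamini-Hochberg adjustment over all tested genes. A gene was within bound when the 95% interval of chronic minus control lay inside 2-fold. Changes were compared with epilepsy and EAE in 1 fit of 36 libraries. The CPM steps gave whole reads (100% of nonzero values whole within 0.001), used for depth and for edgeR 4.0.16 as an alternative. Fits were tested on simulated data. No libraries were duplicates. Alternatives were quantile normalization, mitochondrial rRNA left out, other filters, pseudocounts and library sets, a replicate block, and each library left out.

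Named genes were the 10 largest rises and 10 largest falls among called genes in the more abundant part of the table with separated libraries, from each list the 3 members (or fewer) lowest in adjusted p, 12 fixed endothelial genes, and up to 5 in each direction away from control or unlike epilepsy. Of the 12, Plvap did not pass the filter. Of the genes this rule names, 1 is not reported here. Genes outside this rule are marked in the text. The members, lists and rule were chosen with earlier results of these data known. Reads shared by paralogs or overlapping genes could not be told apart.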

Additional observations from a re-analysis of the deposited data

Results flagged for a closer look

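The results here are changes from subacute to chronic that a test of the difference itself called as unlike another model (adjusted p under 0.05 in limma, 3 libraries a group), given as the stroke change minus the other change in log2. Against EAE, the matrix genes differed by -6.12 for Col1a1, -5.54 for Col3a1, -5.15 for Col6a3, -4.93 for Tnc, -4.35 for Col1a2, -4.13 for Has2, -3.87 for Spp1, -3.37 for Vcan and -2.82 for Mmp9. Fibroblast-associated Pdpn and Lrrc15 differed by -3.06 and -2.88. Among growth and clotting factors, F3 differed by -3.97, Vegfa by -2.90 and Pgf by -2.21. Edil3, a secreted integrin ligand, differed by -2.12 and Nkain1, a membrane protein, by -1.43. In the stroke fit Edil3 and Nkain1, like Col6a3, Has2, Mmp9, Pdpn, Lrrc15 and F3, passed the filter only through their subacute libraries. That way of passing favours a fall in stroke, and the fit of 36 libraries had its own filter. Has2 is at 0 in every stroke chronic library, so its value depends on the pseudocount and is not a bound.

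Against epilepsy, Col1a1 differed by -4.67, Dpysl3 (a cytoskeletal protein of growth cones) by -3.43, Mmp9 by -3.37, Lrrc15 by -2.87, Edil3 by -2.33, Fxyd6 (a regulator of the sodium pump) by -2.32, Cxcr4 by -2.15 and Nkain1 by -1.46. These were lower in stroke relative to epilepsy, and Fxyd6 was not called in stroke alone (-0.76, adjusted p = 0.070). In the other direction, Msr1, a macrophage scavenger receptor, differed by 2.25 and Cdca5, a mitotic cohesin factor, by 1.25. Neither passed the filter in the stroke libraries, and the differences come from epilepsy, where they changed by -2.28 (SE 0.24) and -2.07 (SE 0.18). By edgeR none of the differences from epilepsy was called. Lum, Has2, Lrrc15, Vcan, Pdpn, Mmp9, Dpysl3, Edil3, Nkain1, Fxyd6, Cdca5 and Msr1 were chosen after their values were seen.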

How the results depend on the processing

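All 359 genes called between chronic and subacute kept their sign with quantile normalization, mitochondrial rRNA left out, no filter, no trend, a pseudocount of 0.1, the replicate block and edgeR, and between 116 and 349 of them were called again in each alternative, single libraries left out included. Higher genes (26) became 60 with quantile normalization, 46 with mitochondrial rRNA left out, 17 without a trend, 54 by edgeR, 12 in a fit of only the chronic and subacute libraries, and 42 with quantile normalization without chronic 1. Leaving out single libraries gave 2 to 23 higher and 112 to 351 lower genes. Subacute against control (493 higher, 565 lower) gave 917 and 234 with mitochondrial rRNA left out, and lower counts of 226 without the filter, 360 without a trend and 284 by edgeR. It gave 184 to 601 higher and 48 to 1269 lower without single libraries, 1084 and 330 with mitochondrial rRNA and chronic 1 left out, and 819 higher with quantile normalization without chronic 1. Chronic against control (0 and 0) gave 2 higher with mitochondrial rRNA left out, 3 higher and 1 lower by edgeR, and 1 lower with the acute libraries left out. It gave 0 to 25 higher and 0 to 1336 lower without single libraries, and without chronic 1 it gave 34 and 56 with mitochondrial rRNA left out and 8 and 18 with quantile normalization. Genes within 2-fold (270 of 359) numbered 133 of 300 at a pseudocount of 0.1, 145 of 332 by edgeR, 104 within 1.5-fold, and 74 to 224 without single libraries. Genes still away from or past control (0) numbered 1 with mitochondrial rRNA left out, 1 by edgeR, 0 to 47 without single libraries, and 11 and 6 for chronic 1 left out with mitochondrial rRNA left out or quantile normalization. Genes unlike epilepsy (10) numbered 18 without the filter, 6 at a pseudocount of 0.1, 4 with the replicate block, 0 by edgeR and 3 to 22 without single libraries. Genes unlike EAE (86) numbered 51 at a pseudocount of 0.1, 57 by edgeR and 27 to 399 without single libraries. Reversed signs concerned uncalled genes. Pecam1 was -0.00151 with quantile normalization and -0.0126 to 0.128 without single libraries (-0.0049 without subacute 3), and Cldn5 was -0.115 to 0.0023 without single libraries and 0.0142 with mitochondrial rRNA and chronic 1 left out. Slc2a1 was -0.0497 with quantile normalization and -0.132 when chronic 1 was left out as well, and Cxcl2 was -0.189 to 0.0198 without single libraries. The cause was not tested. The 2 settings that combine a scaling with leaving out chronic 1 were added after seeing the data. No pairing by replicate number was seen (correlations of -0.30 to 0.24 between samples of the same number). With 3 libraries a group this check cannot exclude a batch shared by number. The replicate block gave 28 higher and 291 lower genes. Depth allows levels well under 1 CPM to be counted, but 3 libraries a group limit the precision of every difference.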

Other observations

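Cxcl2 and Mmp3, both chosen after their values were seen, had chronic levels nearer to subacute than to control, with no call by limma against either in the main scaling. Cxcl2, a chemokine that attracts neutrophils, was at 11.9, 14.4 and 14.1 CPM in the subacute, 13.3, 10.2 and 13.9 CPM in the chronic and 5.48, 5.72 and 7.05 CPM in the control libraries. All chronic libraries lay above all controls, with a difference of 0.92 (interval 0.59 to 1.26, limma adjusted p = 0.085), and the chronic minus subacute difference was -0.11 (SE 0.16). Mmp3, a stromelysin, was at 1.69, 4.93 and 3.59 CPM in the subacute, 2.64, 0.675 and 2.35 CPM in the chronic and 0, 0.0392 and 0 CPM in the control libraries, with a chronic minus control difference of 1.43 (interval 0.77 to 2.09, adjusted p = 0.12). Both were called against control by edgeR on recovered reads.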
